A study of Homo sapiens with 64 samples.

Results

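MYC and the 5 network genes MAX, MXD1, MXD4, MXI1 and MNT were followed over 64 microarrays of BEAS-2B, a virus-transformed line of human bronchial epithelial cells. Every probe set whose platform annotation names 1 of these 6 genes was taken, which gave 15 probe sets of 54613 that are not controls. MAX had 5, MXD1 and MXD4 had 3 each, MNT had 2, and MYC and MXI1 had 1 each. For 5 of the 6 genes the brightest probe set that names no other gene stood for the gene, in a fit over 19775 genes. The 3 MXD4 probe sets also name MIR4800, a microRNA gene that lies within MXD4, so their values belong to either gene and come from a fit over all probe sets.

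Confluent cells received indacaterol and GSK256066 together (10 nM each), indacaterol alone (10 nM), GSK256066 alone (10 nM) or vehicle, and RNA was taken after 1, 2, 6 or 18 h. Indacaterol is a long-acting agonist of the beta2-adrenoceptor, which raises cyclic AMP, and GSK256066 inhibits the cyclic AMP-degrading enzyme PDE4. Each of the 16 treatment-by-time groups had 4 arrays, and all groups shared a serum-free keratinocyte medium with epidermal growth factor and pituitary extract, replaced by the unsupplemented medium before treatment. The solvent in the vehicle is not given in the sources used here, and nothing says whether the replicates were separate cultures, so p-values measure the spread between these samples.

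MYC is a basic helix-loop-helix leucine zipper transcription factor that binds DNA as a dimer with MAX. MAX also pairs with MXD1, MXD4, MXI1 and MNT, which recruit SIN3 corepressors and compete with MYC for MAX and for the E-box, the sequence CACGTG. A parallel arm runs through MLX and its partner MLXIP, a glucose-responsive factor. MYC RNA turns over quickly and is known for rising soon after growth signals, whereas several MXD genes are known for higher levels in resting or differentiating cells.

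The promoters of MNT and MXD4 are shown because the probe sets of both changed with time in culture and because both windows hold the E-box that the network's dimers bind. The windows are RefSeq's (GRCh38.p14), 300 bases around each gene's start, 5′ to 3′ on the minus strand. Capitals mark CACGTG, which reads the same on both strands. The MNT window is chr17:2401011-2401310, with the E-box at position -193 relative to the start, and the MXD4 window is chr4:2262060-2262359, with the E-box at position -238.
MNT: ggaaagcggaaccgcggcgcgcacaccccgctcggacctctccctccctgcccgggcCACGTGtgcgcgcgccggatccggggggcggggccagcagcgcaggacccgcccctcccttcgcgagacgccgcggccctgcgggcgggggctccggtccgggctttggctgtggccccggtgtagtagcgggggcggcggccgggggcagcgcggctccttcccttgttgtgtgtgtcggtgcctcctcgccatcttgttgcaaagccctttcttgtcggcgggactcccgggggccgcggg
MXD4: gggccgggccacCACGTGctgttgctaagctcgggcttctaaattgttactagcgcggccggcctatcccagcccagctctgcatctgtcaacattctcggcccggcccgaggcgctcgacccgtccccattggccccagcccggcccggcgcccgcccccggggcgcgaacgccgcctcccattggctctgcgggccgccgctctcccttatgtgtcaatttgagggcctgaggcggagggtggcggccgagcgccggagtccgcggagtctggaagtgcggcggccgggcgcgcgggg
The other 6 windows listed for the genes, 3 of MXI1, 2 of MAX and 1 of MXD1, held no CACGTG. This E-box occurred in 7.26% of all 35116 promoter windows of this length. TGACG, the half-site of the cyclic AMP response element, was searched on both strands and can share its first letters with the end of an E-box. It occurred in 24.6% of all windows and in 0 of the 8 windows of MAX, MXD1, MXD4, MXI1 and MNT. No window of MYC was among these 8, so no motif result is given for MYC. A match is a description of the letters and not a mapped site.

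The arrays' median signal lay between 101.2 and 127.4, where signal is the deposited linear intensity of a probe set. The 16 arrays numbered replicate 3 stood apart. Their summed signal over 6 measured basal keratinocyte markers was 405400 to 1531000, against 299.9 to 591.2 in replicates 1, 2 and 4, and all 6 (KRT5, KRT14, KRT15, KRT16, S100A8 and S100A9) were higher on every replicate 3 array than on any other. The simple epithelial keratins KRT8 (mean signal 4911) and KRT18 (7756) were bright, the epithelial adhesion gene EPCAM was dim (101.3), and the leukocyte gene PTPRC was at 29.7. The summed signal of the 6 airway epithelial markers was 20220 to 29290 in replicate 3 and 8581 to 19710 in the others, that of 6 fibroblast markers 6092 to 9265 and 7100 to 11350, and that of 4 measured leukocyte markers 495.4 to 920.1 and 355.9 to 663.8. Among the fibroblast markers COL1A1 alone was bright, with a mean signal of 8575. COL1A2 was at 140.1, COL3A1 at 96.3, DCN at 141.5, LUM at 81.4 and PDGFRA at 75.2. In the fit without a replicate block, KRT18 was the only one of these markers to pass the test in any comparison, with a change of -0.49 in vehicle cells between 18 h and 1 h. With the block, the airway keratin KRT7 was also called higher with both drugs at 2 h (0.55), 6 h (0.97) and 18 h (0.76) and with indacaterol at 2 h (0.63) and 6 h (0.89), and KRT16 with both drugs at 6 h (0.45). Likewise with the block, 4 of the 6 airway markers were lower in vehicle cells at 18 h than at 1 h, namely KRT18, KRT8 (-0.46), KRT7 (-0.47) and EPCAM (-0.68). The block also called 1 of the 6 fibroblast markers higher in vehicle cells at 2 h than at 1 h. MYC, MNT or MXI1 were called in these same comparisons, with or without the block, except with both drugs at 18 h. The part of these differences in the results below was not tested. Changes of the 6 genes that were called without the block are given with and without replicate 3. For genes of the lists, the value without replicate 3 is given in some cases only.

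MYC rose with both indacaterol treatments at 1 h and 2 h. At 1 h its signal was 5442, 5004, 6959 and 4718 in replicates 1 to 4 with indacaterol, and 4947, 4624, 7058 and 4858 with both drugs. GSK256066 alone gave 3333, 2611, 4783 and 2749, and vehicle gave 2932, 2645, 4472 and 2690. Every array of either indacaterol treatment lay above every vehicle array, and replicate 3 was the highest array of all 4 groups. Indacaterol raised MYC by 0.81 ± 0.15 (log2, SE; 1.76-fold; adjusted p = 0.00085), and both drugs raised it by 0.76 ± 0.15 (1.70-fold; adjusted p = 0.0023). These changes are on the scale log2(signal + 16), which understates the change of low genes, from limma with Benjamini-Hochberg adjustment over all genes and a threshold of 0.05. MYC was thus 1 of 5 genes called in either comparison, where 0.212% of all genes were called with indacaterol and 0.283% with both drugs. Of all genes, 2.35% had every indacaterol array above every vehicle array at 1 h, and 2.25% had every array of both drugs above vehicle. Leaving out replicate 3 gave changes of 0.87 and 0.80, both called. The calls were lost without replicate 1 (0.79 with indacaterol, adjusted p = 0.202, and 0.77 with both drugs, 0.197) and without replicate 2 (0.78, 0.0864, and 0.75, 0.113), and that with both drugs also without replicate 4 (0.74, 0.0562). Without the single array of both drugs at 1 h numbered replicate 3, whose signal of 7058 stands far above the other 3 of its group, the change with both drugs was 0.63 and its adjusted p was 0.0566.

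At 2 h the difference was of the same size at lower levels. MYC signal was 3528, 3496, 4155 and 3193 with indacaterol, and 3560, 3316, 4425 and 2938 with both drugs. It was 2317, 2166, 2163 and 2131 with GSK256066 alone and 1974, 2317, 1989 and 2051 with vehicle. No array of either indacaterol treatment overlapped with vehicle. The change was 0.78 ± 0.15 with indacaterol (1.72-fold; limma adjusted p = 0.00055) and 0.76 ± 0.15 with both drugs (1.69-fold; adjusted p = 0.00084). At this time 1.22% of all genes were called with indacaterol and 1.06% with both drugs, and 2.85% and 2.06% had all 4 arrays above vehicle. Both were still called without replicate 3, at 0.69 and 0.62, and neither was without replicate 1, at 0.76 (adjusted p = 0.0706) and 0.73 (0.108).

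At 6 h MYC signal was 2112, 2274, 2253 and 2057 with indacaterol, and 2539, 2276, 3091 and 1993 with both drugs. GSK256066 alone gave 1898, 2027, 1638 and 1661, and vehicle gave 1964, 1902, 1523 and 1729. All arrays of both indacaterol treatments still lay above all vehicle arrays, as they did for 2.34% of genes with indacaterol and 2.72% with both drugs. Neither change passed the test. It was 0.29 ± 0.15 with indacaterol (limma adjusted p = 1) and 0.46 ± 0.15 with both drugs (adjusted p = 0.147). With the replicate number as a block the change with both drugs had an adjusted p of 0.019, in a comparison where the block called 5.29% of all genes. Without replicate 3 it was 0.28, with an adjusted p of 0.326 and no block. Of the 5 genes, 0 were called in either comparison without the block, and 2 had an unadjusted p under 0.05 in each (MYC and MXI1). At 6 h 0.268% of genes were called with indacaterol and 0.759% with both drugs without the block.

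At 18 h the groups overlapped. MYC signal was 1637, 1813, 1754 and 1833 with indacaterol, 1646, 1994, 1953 and 1726 with both drugs, and 1697, 1991, 1770 and 1822 with GSK256066 alone. Vehicle cells gave 1715, 1998, 1767 and 1781. The changes against vehicle were -0.04, 0.01 and 0.00 with these treatments, with a 95% interval of -0.34 to 0.25 for indacaterol. None of the 5 genes was called at 18 h with indacaterol or with both drugs, where 0.00506% and 0.0354% of all genes were, and none reached an unadjusted p under 0.05.

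**Figure D1:**
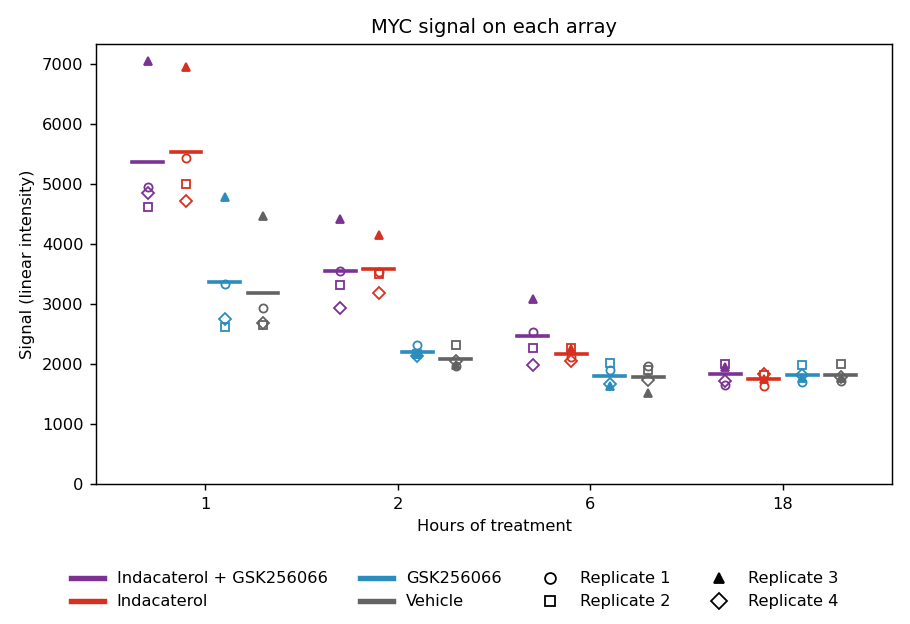
MYC signal (linear intensity, vertical axis from 0) against hours of treatment, with 1 point for each array, a marker shape for each replicate number and a bar at each group's mean. The arrays with both drugs and with indacaterol alone lie above the vehicle arrays at 1, 2 and 6 h, and all 4 treatments overlap at 18 h.

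Whether the drug effect on MYC differed between the 4 times was tested with an F test over the time-by-treatment terms. The limma adjusted p was 0.0596 for indacaterol and 0.196 for both drugs, so a difference between times was not called. With the replicate block it was called for both (adjusted p = 0.00197 and 0.0135), although same-numbered arrays did not deviate together at every time. These fits called 394 and 574 genes, against 53 and 68 without the block. Of all genes, 0.268% and 0.344% were called in these tests, and 0 of the 5 genes were called in either without the block. The unadjusted p for MYC was 0.000173 with indacaterol and 0.0014 with both drugs.

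GSK256066 alone gave no call on any of the 5 genes at any time. The change of MYC against vehicle was 0.07 at 1 h, 0.08 at 2 h, 0.02 at 6 h and 0.00 at 18 h, and its 95% interval at 2 h was -0.21 to 0.37. No gene of the 5 reached an unadjusted p under 0.05 with GSK256066 at any time. Of all genes, 0.00506% were called at 1 h and 0% at 2, 6 and 18 h, while 1401, 898, 345 and 700 genes had an unadjusted p under 0.05 at these times.

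Adding GSK256066 to indacaterol gave no called change either. MYC with both drugs differed from indacaterol alone by -0.05 at 1 h, -0.02 at 2 h, 0.17 at 6 h and 0.05 at 18 h, with intervals of -0.34 to 0.24 at 1 h and -0.12 to 0.46 at 6 h. The test of departure from additivity gave MYC -0.12, -0.10, 0.15 and 0.05 at 1, 2, 6 and 18 h. In both kinds of comparison 0 of the 5 genes were called at any time, 0 reached an unadjusted p under 0.05, and 0% of all genes were called by limma. Unadjusted p-values under 0.05 were found for up to 345 genes at a time between both drugs and indacaterol, and for up to 546 genes in the test of additivity.

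Over time in culture MYC fell in vehicle cells. Against the 1 h level, the change was -0.58 ± 0.15 at 2 h (limma adjusted p = 0.0599), -0.81 ± 0.15 at 6 h (adjusted p = 0.0011) and -0.77 ± 0.15 at 18 h (adjusted p = 0.00091). Every vehicle array at 2, 6 and 18 h lay below every vehicle array at 1 h, as it did for 4.08%, 5.27% and 3.87% of all genes. The mean signal was 3185 ± 867 at 1 h, 2083 ± 160 at 2 h, 1779 ± 198 at 6 h and 1815 ± 125 at 18 h (SD, n = 4 each). The wide spread at 1 h comes from replicate 3 at 4472, against 2932, 2645 and 2690 in the others. Without replicate 3 the changes were -0.38, -0.56 and -0.59, and those at 6 h and 18 h were still called. Without replicate 1 the 18 h change was -0.77 and its call was lost (adjusted p = 0.0708). The same vehicle arrays are the baseline of the drug comparisons at each time, so the time and drug values share samples.

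Of the 16 groups, the highest mean MYC signal was 5531 ± 998 with indacaterol at 1 h, followed by both drugs at 1 h with 5372 ± 1130. Both drugs at 1 h and the next group, indacaterol at 2 h with 3593 ± 404, were the one pair of neighbours in this order whose arrays did not overlap. The lowest mean was 1759 ± 87.9 with indacaterol at 18 h. In bulk RNA, fewer cells with a transcript and less of it per cell cannot be told apart.

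MNT, a MAX partner that represses transcription and is known for opposing MYC, rose with both drugs at 2 h. Its signal on the brighter probe set was 1793, 1996, 2378 and 1758 with both drugs, 1842, 1987, 2201 and 1563 with indacaterol, and 1372, 1344, 1614 and 1513 with GSK256066 alone. Vehicle gave 1234, 1467, 1510 and 1415. All arrays of both indacaterol treatments lay above all vehicle arrays, as for 2.06% of all genes with both drugs and 2.85% with indacaterol. The change was 0.48 ± 0.12 with both drugs (1.40-fold; limma adjusted p = 0.0156), and 0.42 ± 0.12 with indacaterol, which missed the threshold at an adjusted p of 0.0528. MNT and MYC were thus 2 of 5 genes called with both drugs at 2 h, where 1.06% of all genes were. MYC was the 1 called with indacaterol, where 1.22% of all genes were. Without replicate 3 the change with both drugs was 0.43 and still called, but the call was lost without replicate 1 (0.47, adjusted p = 0.258), replicate 2 (0.50, 0.156) or replicate 4 (0.54, 0.0565). Among single arrays, it was lost without the vehicle array of replicate 1 (change 0.42, adjusted p = 0.118) and without the array of both drugs of replicate 3 (change 0.39, adjusted p = 0.192).

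The second MNT probe set was dim, with a mean signal of 129.8, and pointed the other way, with -0.19 with both drugs and -0.06 with indacaterol at 2 h, neither of them called in the fit over probe sets. With the mean of the log2 values of both probe sets, the MNT change with both drugs was 0.15 and had an adjusted p of 0.989. At 1 h, 6 h and 18 h MNT was not called with any treatment. Its means with both drugs, indacaterol, GSK256066 and vehicle were 1136, 1239, 1089 and 1224 at 1 h, 918.3, 891.2, 837.5 and 834.8 at 6 h, and 691, 679.1, 776.8 and 781.2 at 18 h.

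In vehicle cells MNT fell with time. Signal was 829, 918.4, 727.7 and 864 at 6 h and 713.5, 795.9, 731.3 and 884.1 at 18 h, against 1294, 1166, 1263 and 1172 at 1 h. Neither later time overlapped with 1 h, and 5.27% and 3.87% of all genes were likewise lower on every array at 6 h and 18 h. The change was -0.55 ± 0.12 at 6 h (limma adjusted p = 0.0059) and -0.64 ± 0.12 at 18 h (adjusted p = 0.00059), whereas at 2 h it was 0.20 (adjusted p = 0.512). MYC and MNT were the 2 of 5 genes called at 6 h and again at 18 h, both lower, where 1.21% and 1.59% of all genes were called, and 0 of 5 were called at 2 h, where 0.192% were and MYC alone had an unadjusted p under 0.05. The MNT changes were -0.47 and -0.60 without replicate 3, and both were called. Both calls were lost without replicate 1 (-0.52, adjusted p = 0.164, and -0.57, 0.0708) and with the mean of both probe sets (-0.24, 0.284, and -0.32, 0.093). The highest of the 16 MNT means was 1981 ± 285 with both drugs at 2 h and the lowest 679.1 ± 108 with indacaterol at 18 h. In that order, GSK256066 at 1 h and both drugs at 6 h were the one pair of neighbours whose arrays did not overlap.

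MXI1, a MAX partner of the MXD family, was higher with both indacaterol treatments at 6 h, a difference called only when the replicate number was a block. Its signal was 2005, 1477, 2240 and 1721 in replicates 1 to 4 with both drugs, 1983, 1631, 1991 and 1696 with indacaterol, and 1570, 1154, 1790 and 1245 with GSK256066 alone. Vehicle gave 1460, 1066, 1741 and 1278. The groups overlapped, but within each replicate number the array of either indacaterol treatment lay above its vehicle array. MXI1 differed between replicate numbers, with a median over 16 arrays of 1664 in replicate 1, 1314 in replicate 2, 1795 in replicate 3 and 1426 in replicate 4. Replicate 3 was the highest array of every group but indacaterol at 18 h, and the lowest was replicate 2 at 1, 2 and 6 h and replicate 4 at 18 h. The change was 0.43 ± 0.17 with both drugs (limma adjusted p = 0.395) and 0.41 ± 0.17 with indacaterol (adjusted p = 0.832). With the replicate number as a block the adjusted p was 0.000131 with both drugs and 0.000425 with indacaterol, where the block called 5.29% and 2.32% of all genes. Without replicate 3 the changes were 0.45 and 0.48. At 1 h the changes were -0.08 with both drugs and 0.00 with indacaterol, at 2 h 0.23 and 0.22, and at 18 h -0.09 and -0.07, and no call was made at these times in either fit.

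In vehicle cells MXI1 signal was 1761, 1291, 1899 and 1560 at 1 h, 1467, 1158, 1679 and 1235 at 2 h, 1460, 1066, 1741 and 1278 at 6 h, and 1624, 1406, 1754 and 1224 at 18 h. The groups overlapped at all times. The change at 6 h was -0.24 ± 0.17 (limma adjusted p = 0.687, and 0.0489 with the replicate block, where the block called 7.06% of all genes). The highest of the 16 means was 1861 ± 332 with both drugs at 6 h and the lowest 1385 with GSK256066 (± 271) and with vehicle (± 236) at 2 h, and all 15 pairs of neighbours in the order overlapped.

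**Figure D2:**
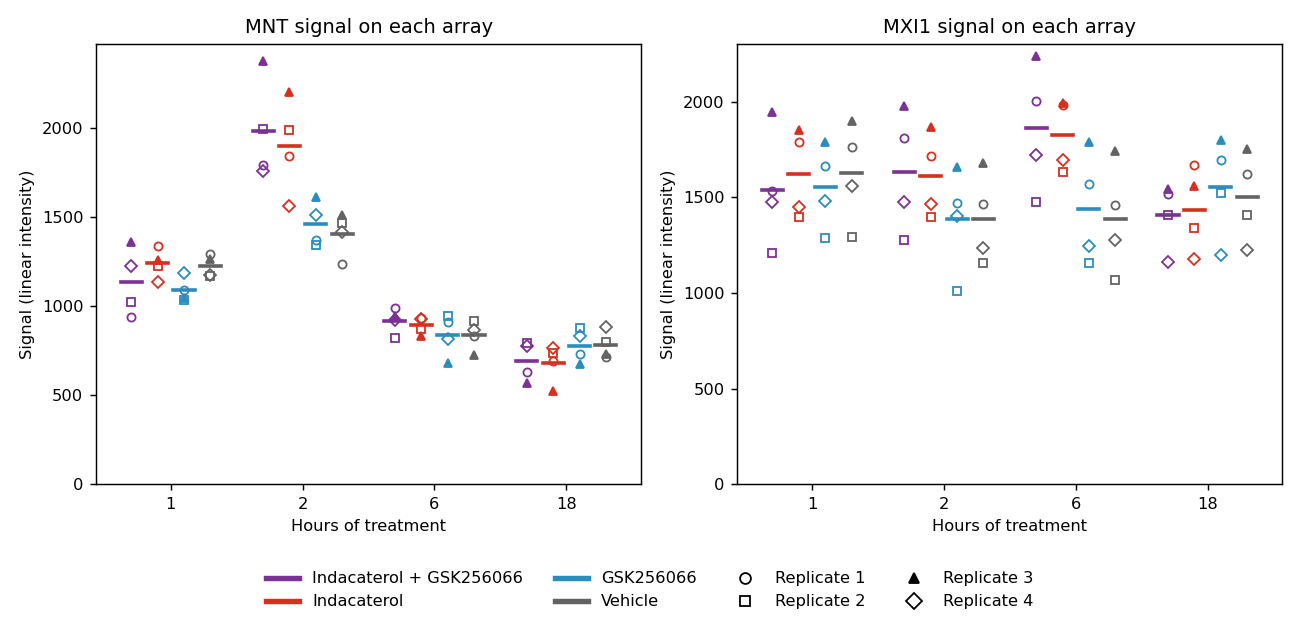
Signal (linear intensity, vertical axes from 0) of MNT on the left and MXI1 on the right against hours of treatment, with 1 point per array, a marker shape for each replicate number and a bar at each group's mean. MNT was highest at 2 h with both drugs and with indacaterol, and for MXI1 replicate 3 was the highest array in all groups but indacaterol at 18 h, while the lowest was replicate 2 at 1, 2 and 6 h and replicate 4 at 18 h.

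MXD1, a MAX-binding repressor that gives the MXD family its name, was dim on its brightest probe set, with a mean signal of 205.9. It was called with no treatment at any time, and its changes against vehicle were -0.25 to 0.09. In vehicle cells its signal was 317.1, 265.4, 324.1 and 260.7 at 18 h, against 215.1, 196.7, 239.9 and 177.1 at 1 h. The 18 h arrays all lay above the 1 h arrays, as they did for 3.79% of all genes. The change was 0.46 ± 0.17, with a limma adjusted p of 0.227, and 0.0194 with the replicate block, where 7.92% of all genes were called. Without replicate 3 the change was 0.48, with a limma adjusted p of 0.0984. At 2 h the vehicle signal was 153.5, 143.9, 209.2 and 155.7 and at 6 h 195, 185.2, 267.5 and 154.2, and neither differed from 1 h by the test. The F test over the 4 vehicle times called MXD1 (limma adjusted p = 0.0162), MYC (0.00023) and MNT (3.96e-07), 3 of 5 genes where 6.63% of all genes were called. The second MXD1 probe set, with a mean of 186.2, gave -0.04 between 18 h and 1 h, and the third had a mean signal of 20.2, so the difference stands on 1 probe set.

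The 3 probe sets that name MXD4 and MIR4800 fell with time in vehicle cells. MXD4 is a MAX partner of the MXD family, known in resting and differentiating cells. On the brightest set the vehicle signal was 699.5, 828.4, 897.9 and 741.8 at 18 h, against 1185, 1080, 1358 and 1234 at 1 h. On the second it was 727.6, 780.5, 927 and 804.5 against 1119, 1141, 1241 and 1211, and on the third 185.6, 218.1, 243.6 and 200.4 against 296.4, 303.7, 328.7 and 300.4. No 18 h array overlapped with 1 h on any of the 3, which held for 3.88% of all 54613 probe sets. The changes were -0.61 ± 0.13, -0.54 ± 0.11 and -0.51 ± 0.13 (limma adjusted p = 0.0083, 0.0020 and 0.024 over all probe sets), and 1.16% of all probe sets were called. The third set's call was lost without any 1 of 7 of the 8 arrays compared, with adjusted p of 0.0525 to 0.119. Without replicate 3 the changes were -0.61, -0.58 and -0.54, all still called. All 3 calls were lost without replicate 1 (adjusted p = 0.171, 0.0929 and 0.211) and without replicate 4 (0.257, 0.114 and 0.271), and the third also without replicate 2 (0.136).

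At 6 h in vehicle cells the changes of these sets were -0.20, -0.40 and -0.42, and the second alone was called (adjusted p = 0.045), where 0.846% of all probe sets were. Its vehicle signal was 839.6, 937.9, 948.8 and 832.8 at 6 h. Its call was lost without any 1 of the 8 arrays compared and without each of 3 arrays of other groups, with adjusted p of 0.0501 to 0.178. It was also lost without replicate 1 (0.331), replicate 2 (0.102) or replicate 4 (0.375), and with quantile normalization (-0.33, 0.16). Without replicate 3 the change was -0.41 and still called (limma adjusted p = 0.0347). With the replicate block the third set was called as well (adjusted p = 0.0121, with 4.72% of all probe sets called), and on both sets every 6 h array lay below every 1 h array, as for 5.24% of probe sets.

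With both drugs at 6 h the 3 MXD4 and MIR4800 sets were lower than with vehicle on every array. On the brightest set the signal was 889.1, 875.9, 861.9 and 851 with both drugs, against 990.3, 1041, 1140 and 1034 with vehicle. On the third set it was 160.1, 185.9, 165.8 and 171.9, against 191.5, 249.6, 238.1 and 225.3. Such a separation held for 2.67% of all probe sets. The changes of -0.27, -0.26 and -0.37 did not pass the test (limma adjusted p = 0.765, 0.487 and 0.308, with 0.485% of probe sets called). With the replicate block the third was called at an adjusted p of 0.0422, where 3.12% of all probe sets were. With indacaterol alone at 6 h the changes were -0.12, -0.19 and -0.24, none of them called.

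MAX, the shared partner of all the other products, was called on none of its 5 probe sets in any comparison. On the brightest set, with a mean signal of 3102, the group means lay between 2876 ± 392 (GSK256066 at 1 h) and 3546 ± 387 (both drugs at 6 h). The changes against vehicle were -0.07 to 0.11, and the 95% intervals at 2 h were -0.18 to 0.24 with both drugs and -0.20 to 0.22 with indacaterol. In vehicle cells MAX differed from 1 h by 0.11 at 2 h, 0.15 at 6 h and -0.03 at 18 h. All 15 pairs of neighbours in the order of the 16 groups overlapped.

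**Figure D3:**
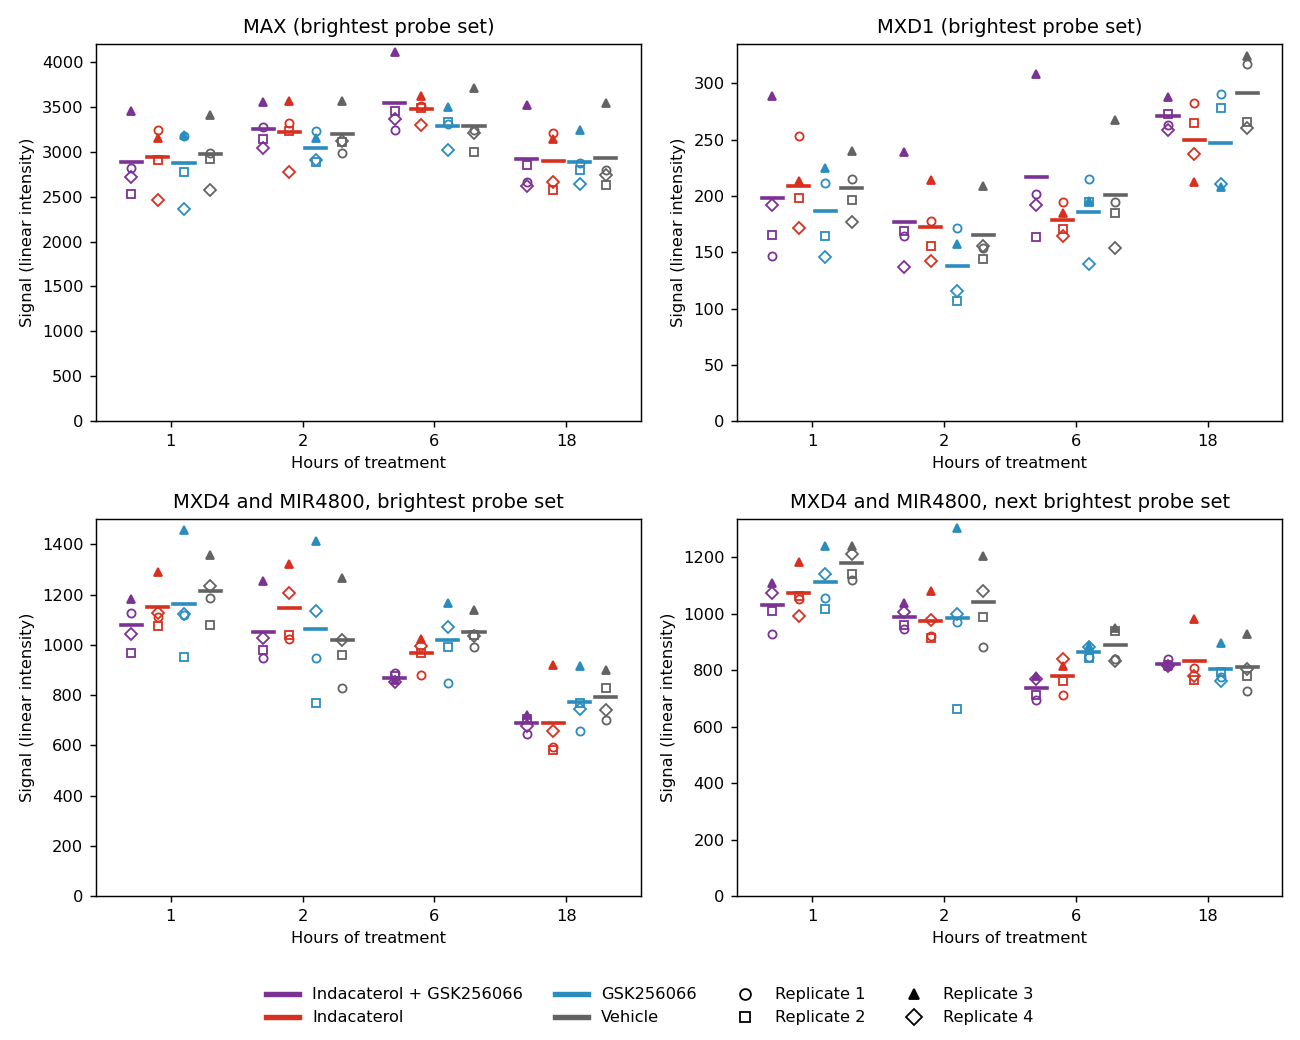
Signal (linear intensity, vertical axes from 0) of MAX, MXD1 and the 2 brighter probe sets that name MXD4 and MIR4800, against hours of treatment, with 1 point per array and a bar at each group's mean. MAX stayed within 2362 to 4113 on all arrays, MXD1 was highest at 18 h, and both MXD4 sets were lower at 18 h than at 1 h.

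**Figure D4:**
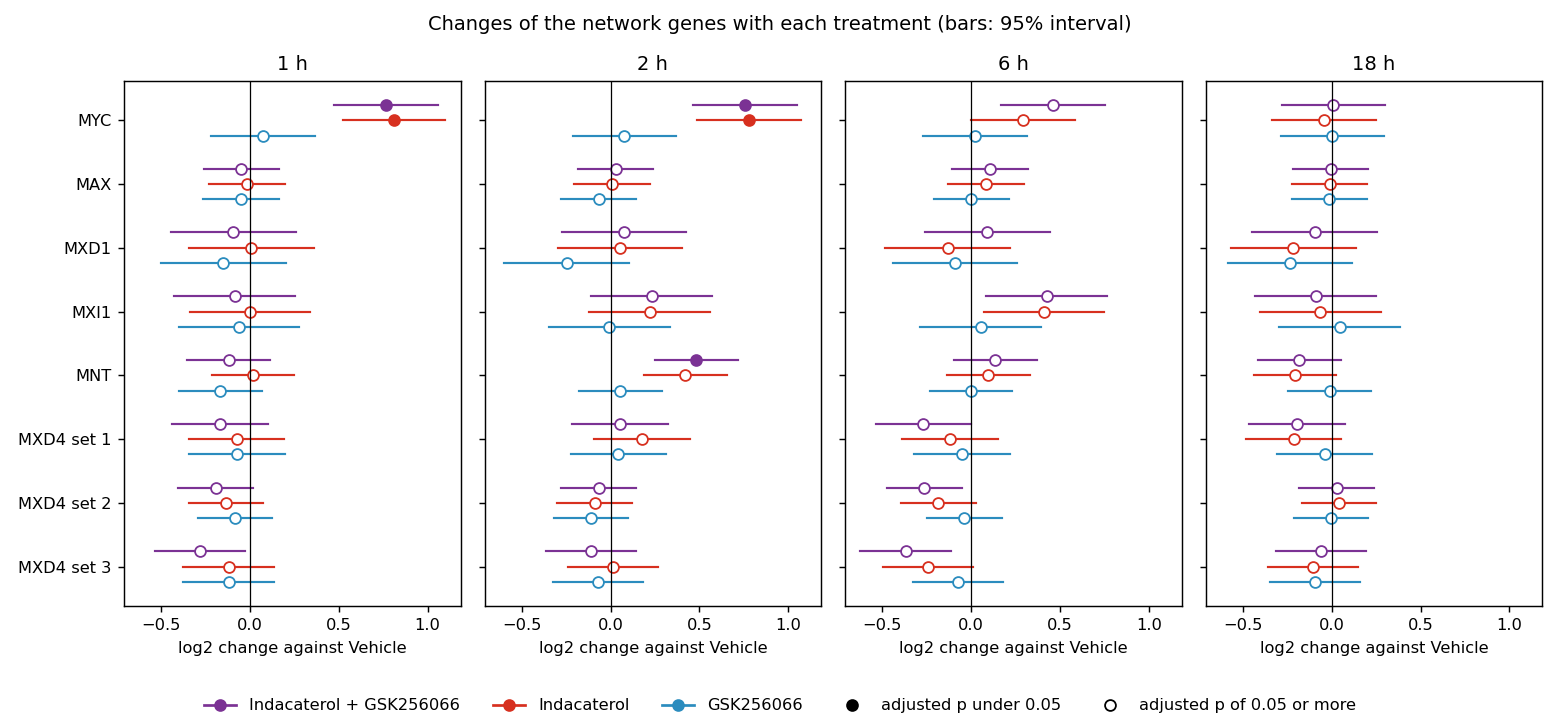
Changes against vehicle on the scale log2(signal + 16) at each time, with points at the estimate, bars for the 95% interval and filled points where the limma adjusted p was under 0.05. MXD4 sets 1 to 3 run from the brightest to the dimmest and also name MIR4800. Filled points stand at MYC at 1 h and 2 h with both indacaterol treatments and at MNT at 2 h with both drugs.

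Among 7 other genes of the MAX and MLX network, MXD3, a MAX partner of the MXD family known from dividing cells, fell with indacaterol at 2 h. Its signal was 743.1, 543.5, 525.2 and 426.9 with indacaterol, against 932.9, 803.4, 819.4 and 907.2 with vehicle. The change was -0.64 ± 0.13 (limma adjusted p = 0.0029). Both drugs gave 745.8, 635.9, 518.3 and 701.3 (-0.41; adjusted p = 0.177) and GSK256066 alone gave 884.1, 627.3, 633.5 and 695.6 (-0.29; adjusted p = 1), neither of them called. MXD3 was also higher in vehicle cells at 18 h than at 1 h, by 0.90 ± 0.13 (adjusted p = 2.14e-05), with a signal of 1676, 1409, 2057 and 2026 against 980, 1012, 920.3 and 854.6. MLXIP rose with both drugs at 6 h, by 0.35 ± 0.09 (adjusted p = 0.0251, and 0.182 without replicate 3), with 1144, 1153, 1190 and 1128 against 991.1, 890.9, 851.4 and 878.3 with vehicle. With indacaterol at 6 h MLXIP changed by 0.30 (adjusted p = 0.179, and 0.0174 with the replicate block). No other gene of the 7 was called in these comparisons. The list's median change was -0.13 with indacaterol at 2 h and -0.09 with both drugs at 6 h, beside 0.00 over all genes in each.

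Of 20 measured cofactors of MYC and regulators of its turnover, 1 rose and 0 fell with both drugs at 2 h, and 0 were called at any other time with either indacaterol treatment. The 1 was PIM1, a kinase that phosphorylates MYC, with 688.6, 784.3, 886.3 and 771.4 with both drugs against 504.8, 566.9, 539.2 and 592.9 with vehicle. Its change was 0.49 ± 0.13 (limma adjusted p = 0.0303). With the replicate block AURKA, a kinase known for stabilising MYC family proteins, was lower at that time as well (-0.58; adjusted p = 0.000257, and 0.0625 without the block), where the block called 3.5% of all genes. SIN3A, a corepressor of the MXD proteins, was lower in vehicle cells at 18 h than at 1 h, by 0.51 on the log2 scale (change -0.51 ± 0.11; adjusted p = 0.0060). The list's median was 0.00 with both drugs at 2 h, beside -0.02 over all genes.

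None of 27 measured genes listed as activated by MYC was called with either indacaterol treatment at any time in the fit over all replicates, although SLC7A5 was without replicate 3. Their median change with indacaterol was -0.02 at 1 h, 0.06 at 2 h, 0.02 at 6 h and -0.05 at 18 h, beside -0.02, 0.00, 0.00 and 0.01 over all genes. With both drugs the medians were -0.03, 0.00, 0.00 and 0.02, beside -0.04, -0.02, 0.00 and 0.02 over all genes. With the replicate block, which called 3.5% of all genes, 3 of 27 were higher with both drugs at 2 h. The block called 3 higher with indacaterol at 2 h as well. There it called 755 of 19775 genes, although same-numbered arrays did not all deviate together. With both drugs they were ODC1, the first enzyme of polyamine synthesis (0.25; adjusted p = 0.0128), TFRC, the transferrin receptor (0.43; 0.00172), and SLC7A5, an amino acid transporter (0.69; 0.00363). Leaving out replicate 3 also brought SLC7A5 past the test without any block, at 2 h with both drugs (0.81; adjusted p = 2e-05) and with indacaterol (0.84; 8.93e-06), and at 6 h with both drugs (0.71; 0.00022) and with indacaterol (0.62; 0.00207). At 6 h with all replicates SLC7A5 was 0.71 higher with both drugs (adjusted p = 0.637, and 0.00236 with the block). CDK4, a cyclin-dependent kinase of the G1 phase, was 0.21 lower by the block at that time (change -0.21; adjusted p = 0.000934, and 0.0672 without the block), and TFRC likewise (-0.30; 0.0384, and 0.999 without it).

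In vehicle cells 2 of the 27 were higher at 6 h than at 1 h and 3 were lower at 18 h than at 1 h, where 1.21% and 1.59% of all genes were called. The 2 were CDK4 (0.24 ± 0.06; limma adjusted p = 0.0179) and SRM, spermidine synthase (0.26 ± 0.06; 0.0161, and 0.057 without replicate 3). The 3 were RRS1 and MRTO4, ribosome assembly factors, and UBTF, a factor of RNA polymerase I. RRS1 changed by -0.48 (adjusted p = 0.0216, and 0.0516 without replicate 3), MRTO4 by -0.33 (0.0236) and UBTF by -0.34 (0.0171). With the replicate block 5 were higher at 6 h and, at 18 h, 1 was higher and 8 were lower, where the block called 7.06% and 7.92% of all genes. The list's medians were 0.11 at 6 h and -0.07 at 18 h, beside 0.00 over all genes in each.

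Of 7 genes listed as repressed by MYC, 0 were called with either indacaterol treatment without the block. CDKN1A, a cyclin-dependent kinase inhibitor, was 0.40 higher with both drugs at 6 h with the replicate block (adjusted p = 8.77e-06, and 0.715 without it). CDKN2B, another such inhibitor, was higher in vehicle cells at 18 h than at 1 h (0.59 ± 0.13, with a limma adjusted p of 0.0050). In this comparison 1.59% of all genes were called. With the replicate block, which called 7.92% of all genes, 1 of the 7 was higher and 1 was lower. Changes of the 7 ran from -0.51 to 0.59.

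TXNIP, an inhibitor of thioredoxin and of glucose uptake that MLXIP and MLX activate, fell with both indacaterol treatments at 2 h. Its signal was 1494, 1419, 803.1 and 1256 with both drugs and 1466, 1647, 995 and 1631 with indacaterol, against 3363, 3566, 2757 and 3419 with vehicle. Neither group overlapped with vehicle, and the share of all genes lower on every array was not counted for these comparisons. The change was -1.42 ± 0.21 with both drugs (limma adjusted p = 8.18e-06) and -1.20 ± 0.21 with indacaterol (adjusted p = 0.00017). At 2 h 1.06% of all genes were called with both drugs and 1.22% with indacaterol. In vehicle cells the mean TXNIP signal was 5871 at 1 h, 3276 at 2 h, 4564 at 6 h and 6631 at 18 h. No later vehicle time was called against 1 h without the block. With the block, which called 855 genes there, TXNIP and ARRDC4 were lower at 2 h. At 1 h TXNIP changed by -0.54 with indacaterol (adjusted p = 0.457, and 0.00329 with the replicate block, which called 1.04% of all genes). ARRDC4, the other gene listed as a target of this arm, changed by -0.62 with both drugs at 2 h (adjusted p = 0.699, and 9.81e-07 with the block).

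**Figure D5:**
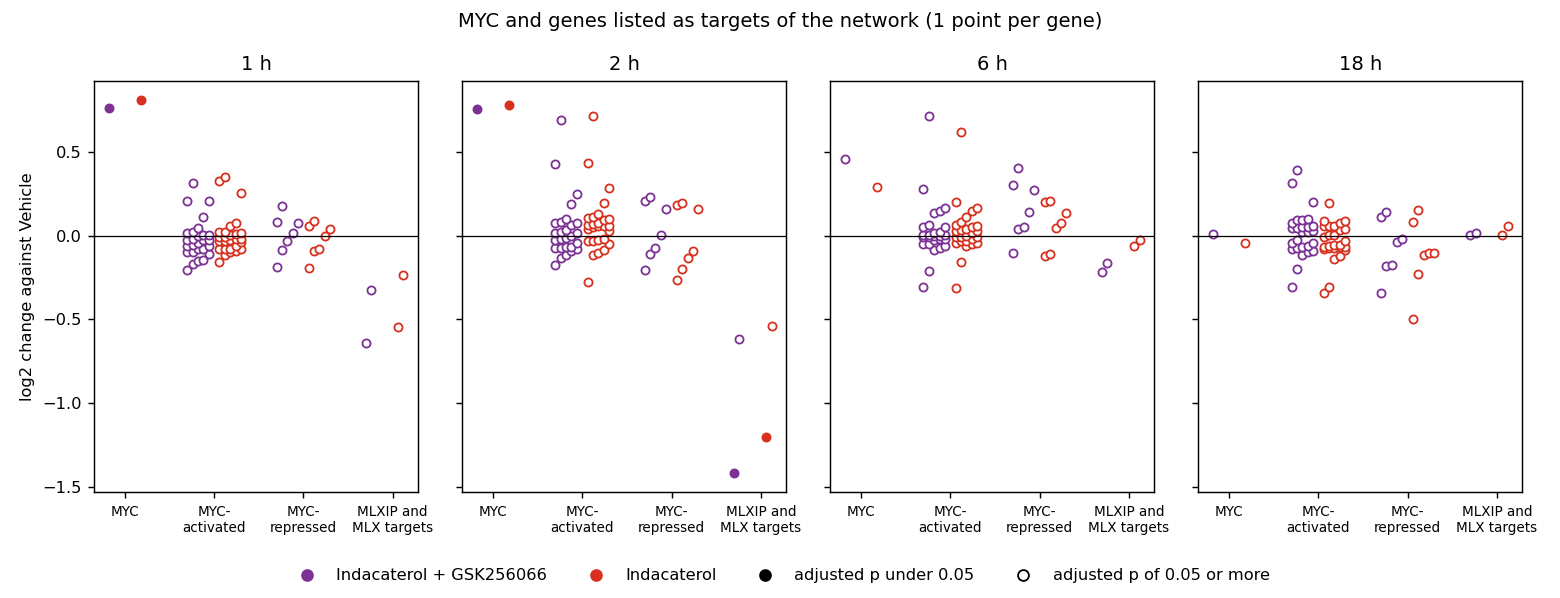
Changes against vehicle (log2, vertical axis) of MYC and of every measured gene in the lists of 27 MYC-activated genes, 7 MYC-repressed genes and the MLXIP and MLX targets TXNIP and ARRDC4, with filled points where the limma adjusted p was under 0.05. MYC is filled at 1 h and 2 h, TXNIP is filled below 0 at 2 h, and no gene of the MYC-activated or MYC-repressed lists is filled.

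The genes whose pattern was most like each network gene were found by Pearson r over the 16 group means, among 11079 genes with a mean signal of at least 200. These values describe group means that share treatments and arrays. For MYC they were ERRFI1, an inhibitor of the epidermal growth factor receptor (r = 0.989), ID1, an inhibitor of basic helix-loop-helix factors (0.983), and HES1, a Notch-responsive repressor (0.978). Without replicate 3 these values were 0.988, 0.979 and 0.984, at ranks 1, 4 and 2. For MNT they were MIDEAS (0.957), PLAU (0.956) and VASN (0.954), and for MXI1 INSR, the insulin receptor (0.959), SLC1A1 (0.943) and BBX (0.922). For the brightest MXD4 and MIR4800 set they were BRD3OS (0.979), ANKRD33B (0.973) and DEF8 (0.973). MAX gave FTSJ1 (0.970), SECTM1 (0.961) and RRP1B (0.958), of which RRP1B was ranked 119 without replicate 3. MXD1 gave ARSJ (0.972), LCA5 (0.965) and ATF2 (0.965), which were ranked 7, 28 and 23 without replicate 3. In the same way the genes for MNT were ranked 1, 4 and 7, and those for MXI1 2, 1 and 6. Those for the MXD4 and MIR4800 set were ranked 2, 1 and 4.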

How the data were processed

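Gene expression was measured on 64 Affymetrix arrays, 4 in each of 16 groups of BEAS-2B cells. The deposited values are linear intensity values per probe set, made with PLIER and Transcriptome Analysis Console 4, per the submitters' processing notes; their scaling is not given in the sources used here, and the highest value per array, 16840 to 1082000, shows that no log had been taken. All value columns were used (0 left out). Control probe sets (62 of 54675) were dropped. Genes were named through the platform annotation, which gives 1 symbol to 41091 probe sets, several to 1801 and none to 11721. The brightest probe set of 1 symbol stood for a gene. Values became log2(intensity + 16), and limma 3.58.1 in R 4.3.3 fitted all 16 groups together (lmFit and eBayes, 48 residual degrees of freedom), over 19775 genes and separately over 54613 probe sets, with Benjamini-Hochberg adjustment and a threshold of 0.05. The script was tested on simulated data. The number of arrays limits the precision.

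Replicate numbers were taken from the labels. In 14 of 19 comparisons of 2 groups, same-numbered arrays deviated together, with every correlation over 0.1. There the value with the number as a block stands beside a named result whose call it changes. The exceptions at 1 h were both drugs against vehicle and against indacaterol. Those at 2 h were indacaterol and GSK256066 against vehicle, and vehicle against its 1 h level. Arrays of different numbers were not correlated with each other. Replicate 3 stood apart in every group, which alone can make these deviations correlate. The correlations therefore do not show that the numbers pair the arrays.

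The 6 genes and all lists were chosen with earlier results of these data known. Named genes are the 6 with every probe set, list genes past the test and the 3 genes most like each of the 6. Where no list gene passed, the naming rule took the 2 with the lowest p-values, but these were not always named. Some list genes called only with the replicate block were named, after their values were seen. Others called only with the block were not named. Alternatives were another pseudocount, a floor on mean signal, quantile normalization, the replicate block, arrays left out, another pool for the spread and the mean over all probe sets of a gene.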

Additional observations from a re-analysis of the deposited data

Results flagged for a closer look

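In 1 of 96 groups of 4 arrays, the array farthest from the others stood apart by more than Dixon's 95% limit on the log2 scale. This was MYC with both drugs at 1 h, where the replicate 3 array had a signal of 7058 and the other 3 had 4624 to 4947. Chance flags about 1 in 20 such groups. Replicate 3 was also the highest MYC array with indacaterol (6959), with GSK256066 (4783) and with vehicle (4472) at 1 h, without passing the limit there.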

How the results depend on the processing

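The 4 MYC changes with indacaterol and with both drugs at 1 h and 2 h kept their direction under all alternatives run. Taking the spread from the compared groups alone left 0 of 5 genes called at 1 h with indacaterol and with both drugs, and 0 at 2 h with both drugs. In vehicle cells it left 0 called at 6 h and 1 at 18 h. For the indacaterol effect across times it called 1 gene, against 0 in the main fit. The cause of these changes was not tested. For indacaterol at 2 h 2 genes were called (MYC and MNT) with a mean signal floor of 64, with quantile normalization, with the replicate block and with the block without replicate 3. The replicate block called 1 gene for indacaterol at 6 h (MXI1), 2 for both drugs at 6 h, 1 for vehicle at 2 h (MYC, adjusted p = 0.00631), 2 for the indacaterol effect across times (MYC and MXI1) and 3 for that of both drugs (MYC, MXI1 and MNT); without replicate 3 these were 1, 1, 1, 1 and 3. Across vehicle times it called 4 (MXI1 added); beyond these and the blocked values given for MXD1 and MXI1 it changed no call of the 5 genes. The effect across times was called for 1 gene with indacaterol under the floor, under quantile normalization and without replicate 3, and for 1 with both drugs under quantile normalization and without replicate 3. With the mean of all probe sets 1 gene was called with both drugs at 2 h, and 1 each in vehicle cells at 6 h and 18 h. Over 19 comparisons of 2 groups, 13 calls fell on the 15 probe sets, and 21 with the replicate block. The block also called more of all probe sets, with 4.72% against 0.846% in vehicle cells at 6 h. With both drugs at 6 h it called 3.12% against 0.485%. No share of all probe sets was taken over the 19 comparisons, here or with arrays left out.

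With single arrays or 1 replicate number left out, the number of the 5 genes called ranged from 0 to 1 at 1 h with indacaterol and with both drugs, 0 to 2 at 2 h with each, 0 to 1 in vehicle cells at 2 h, 1 to 2 at 6 h, 0 to 2 at 18 h, 2 to 3 across vehicle times, and 0 to 1 for each effect across times; calls on probe sets ranged from 1 to 14. The cause of the calls lost without replicates 1, 2 or 4 was not tested. For 99 pairs of a gene and a comparison no setting gave a call, where fits with single arrays left out were not checked for calls. Of these pairs, 69 changed sign under at least 1 setting, single arrays left out included. Over all genes, indacaterol at 2 h called 241, and 755 with the replicate block, 354 with quantile normalization and 61 with the spread of the compared groups; both drugs at 2 h called 209, 692, 354 and 70.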
